A study of Mus musculus with 16 samples.

Results

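Selenbp1 and Selenbp2 are neighbouring genes of selenium-binding proteins, and their m6A peaks were described in the livers of lean and db/db male mice. All peaks that the deposited lists assign to either gene name were taken, which gave 11 peaks of 28297, in 2 genes of 8284. The pair was chosen by which lists hold its peaks, those of the lean or of the db/db mice, so presence and absence, fold, score and length are given as a description with no test. The study measured N6-methyladenosine (m6A), a methylated base of RNA, by MeRIP-seq, in which fragmented total RNA is precipitated with an antibody against the mark and sequenced beside an input sample. The labels name 4 lean mice of strain C57BL/6 and 4 mice whose strain is given as db/db, in which the leptin receptor is defective and obesity and diabetes follow. The mice were male and kept under specific pathogen free conditions with free access to food and water, and the labels give neither their age nor the strain background of the db/db mice. Each mouse gave 1 list of peaks from its precipitated library, of 2475 to 4807 peaks, and sequencing depth was unknown.

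Selenbp1 encodes a protein that binds selenium, and its human counterpart is a methanethiol oxidase, which breaks down methanethiol into hydrogen sulfide, hydrogen peroxide and formaldehyde. It is not a selenoprotein in the usual sense, since selenium is bound to the protein and not built in as selenocysteine. Selenbp2 encodes a closely related liver protein, known in mice as one that binds acetaminophen. The m6A mark is written by the METTL3 and METTL14 complex, is often found near stop codons and in the last exon, and is bound by YTH proteins that act on the stability and translation of a transcript.

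The genes lie in the same orientation on mouse chromosome 3 (mm10, annotated with RefSeq for GRCm38.p6), and no other annotated symbol begins with Selenbp. Selenbp2 (gene ID 20342, transcript NM_019414) spans 94693573 to 94704406, or 10834 bases, on the plus strand. Selenbp1 (gene ID 20341, transcript NM_009150) spans 94933083 to 94944758, or 11676 bases, on the same strand, and 228676 bases separate the genes. The copies are alike even in front of the transcribed sequence. The 250 bases before each annotated start, from RefSeq for GRCm38.p6, are shown because they let the likeness of the copies be seen base by base. Capitals mark bases that differ from, or are missing in, the other gene when the windows are aligned. They cover chr3:94932833-94933082 and chr3:94693323-94693572, both on the plus strand.
Selenbp1: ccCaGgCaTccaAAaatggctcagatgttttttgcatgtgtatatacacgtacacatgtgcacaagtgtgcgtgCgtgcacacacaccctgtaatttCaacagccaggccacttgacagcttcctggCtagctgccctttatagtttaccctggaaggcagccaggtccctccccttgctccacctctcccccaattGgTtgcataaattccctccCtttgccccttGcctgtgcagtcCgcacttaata
Selenbp2: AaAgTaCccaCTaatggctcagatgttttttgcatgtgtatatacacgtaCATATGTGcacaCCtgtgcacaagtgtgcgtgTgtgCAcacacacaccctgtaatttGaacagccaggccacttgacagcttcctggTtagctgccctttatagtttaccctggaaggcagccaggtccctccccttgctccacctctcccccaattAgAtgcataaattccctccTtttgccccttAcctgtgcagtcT
Over the whole windows of 300 bases, which run 50 bases into the gene, 273 of 300 aligned columns were identical (91%), 15 held a substitution and 12 a gap. The windows shared 102 of their 281 words of 20 bases. Of 32849 other windows in the same table, 0 shared such a word with Selenbp1 and 0 with Selenbp2. Where copies share sequence, reads of one can be placed in the other, and the sources used here do not say how the authors placed such reads. The sequence under the peaks was not used here, so how alike the copies are there, and the part of shared reads in the pattern of the pair, was not tested. The assignment of a peak to one gene or the other is uncertain to that extent.

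Selenbp1 peaks were listed for all 4 lean mice and for no db/db mouse, and Selenbp2 peaks for all 4 db/db mice and for no lean mouse. Of all genes, 0.133% were listed in every lean mouse only and 0.205% in every db/db mouse only. Among the 17936 regions, formed by merging peaks of a gene that share at least 1 base over the lists, these shares were 0.0948% and 0.0725%. The pair was picked for belonging to these sets, so nothing follows from its membership. Peaks that overlapped the annotated bounds of either gene under any name numbered 4 for Selenbp1 and 7 for Selenbp2, the same as by name. A listed peak needs both enrichment by the antibody and enough reads of the transcript, and the mark under it was not checked in another way here. The input libraries were not analysed here, so the part that transcript level has in this pattern was not tested, and in whole liver fewer cells of a type and less RNA per cell cannot be told apart.

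The Selenbp1 peak had the same position in all lean mice, at the very end of the gene. In lean mouse 1 it ran from 94944406 to 94944757, with a fold enrichment of 8.13 as the authors deposited it. Lean mouse 2 had it from 94944409 to 94944755, with a fold of 4.69. In lean mouse 3 it again covered 94944406 to 94944757, with a fold of 9.15. The values of lean mice 1 and 3 were thus close to each other and above those of the remaining lean mice. In lean mouse 4 the peak ran from 94944406 to 94944755 and the fold was 5.79. The mean fold was 6.94 ± 2.06 (SD, n = 4). The bases 94944409 to 94944755, 347 in all, lay in the peak of every lean mouse.

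The score, the peak's p-value as log10 multiplied by -10, spread much further than its length for Selenbp1. It was 1066 in lean mouse 1, 51.5 in lean mouse 2, 456 in lean mouse 3 and 208 in lean mouse 4. The lowest score listed in any list was 50, so the peak of lean mouse 2 stood just inside the authors' threshold, at rank 2918 of 2989 by score. Lengths were 352, 347, 352 and 350 bases in lean mice 1 to 4, so that the weak peak was almost as long as the others. The presence of Selenbp1 in the list of lean mouse 2 rests on this weak call. With peaks of a score under 100 or a fold under 5 left out, Selenbp1 had a peak in 3 lean mice. With every list cut to its 2475 peaks of highest fold, the length of the shortest list, Selenbp1 remained in 1 lean mouse, lean mouse 3, whose own list is the shortest, and Selenbp2 in 3 db/db mice.

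Selenbp2 had its main peak at the matching place, the end of the gene, in the db/db mice. In db/db mouse 1 it ran from 94704054 to 94704388, with a fold of 9.46 and a score of 1533. Db/db mouse 2 had it from 94704054 to 94704385, with a fold of 22.1 and a score of 566. Db/db mouse 3 had it from 94704054 to 94704399, with a fold of 19.8 and a score of 1357. These peaks began at the same base, and folds and scores were ordered differently, since the mouse of the highest fold had the lowest score. The peak of db/db mouse 4 was shorter, from 94704069 to 94704384, with a fold of 12.1 and a score of 631. The mean fold was 15.9 ± 6.04 (SD, n = 4), and peaks were 316 to 346 bases long. The bases 94704069 to 94704384, 316 in all, lay in the peak of every db/db mouse. The lowest Selenbp2 fold, 9.46, lay just above the highest Selenbp1 fold, 9.15. However, these are folds from the lists of different mice, whose backgrounds may differ, and they were not compared by a test.

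Counted from the end of each gene, the end regions of both genes began at the same distance. The first base of the Selenbp1 region lay 352 bases before the annotated end of its gene, and so did the first base of the Selenbp2 region. In each gene 3 of the 4 mice had a peak starting at exactly that base. The Selenbp1 peaks stopped 1 to 3 bases before the gene end and those of Selenbp2 7 to 22 bases before it. The exons of the genes were not used here, so the place of this shared boundary relative to the last exon or the stop codon is not given.

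**Figure D1:**
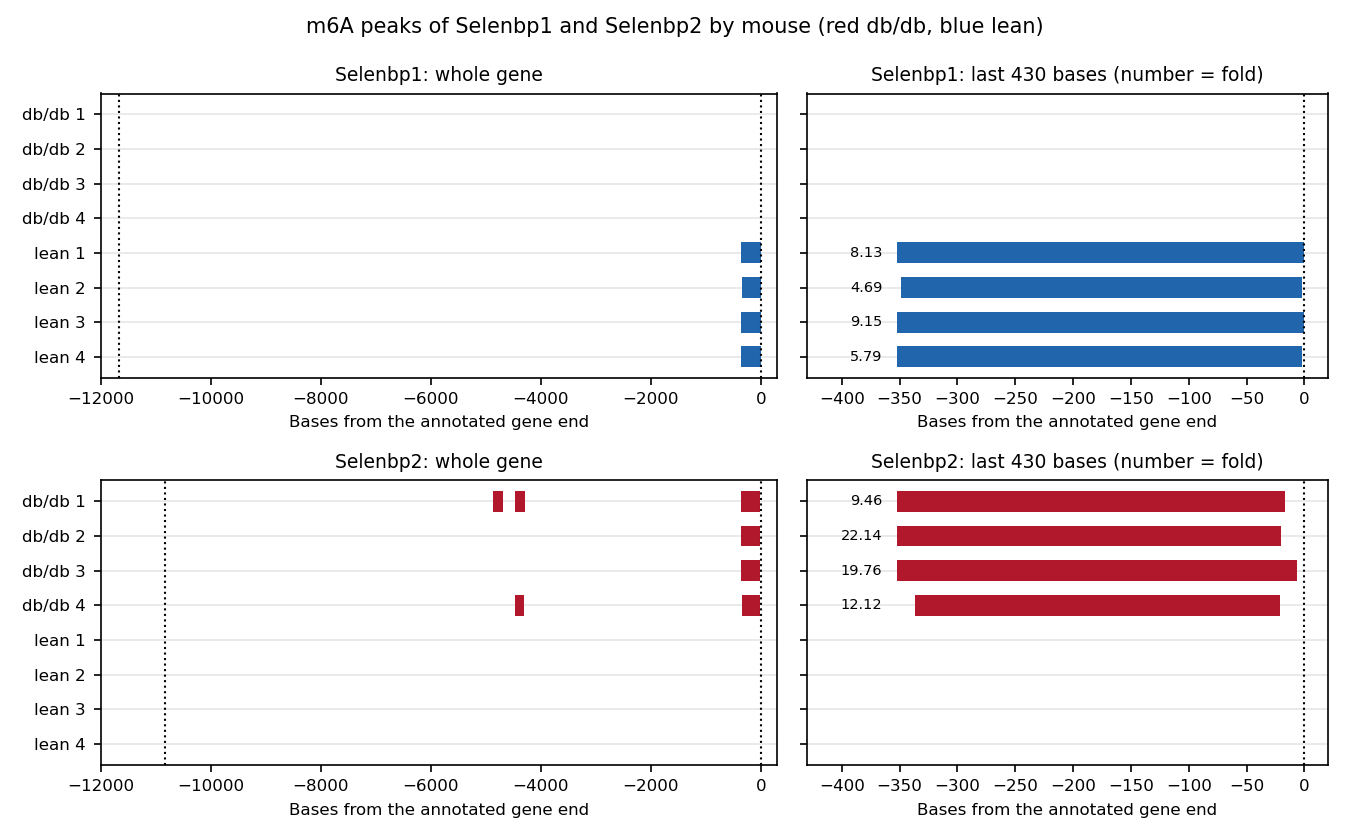
Peaks of Selenbp1 (top) and Selenbp2 (bottom) in each mouse, by distance in bases from the annotated end of the gene, over the whole gene (left, where dotted lines mark the gene's start and end) and over its last bases (right, with the authors' fold beside each peak). Peaks at the gene end are in lean mice for Selenbp1 and in db/db mice for Selenbp2, and both sets begin 352 bases before the end.

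Selenbp2 also had weaker peaks inside the gene, which Selenbp1 lacked in every list. In db/db mouse 1 a peak of 183 bases at 94699530 to 94699712 had a fold of 4.06 and a score of 92.9, and no other mouse had it. A second internal region, separated from the first by 225 bases, was found in db/db mice 1 and 4. In db/db mouse 1 it ran from 94699938 to 94700116, with a fold of 4 and a score of 107. In db/db mouse 4 it began at the same base and ended at 94700108, with a fold of 3.65 and a score of 94.8. Folds this low were rare, since 0.936%, 0.791% and 0.917% of the peaks of their lists had a lower one. Their scores stood in the middle, above 54.6% to 69.3% of peaks. These regions began 5957 and 6365 bases after the annotated start, a little past the midpoint of the gene (55.0% and 58.8% of its length). The lists of the mice with internal peaks were the longest of the db/db lists, with 4807 and 4251 peaks against 2831 and 3640, and the part of list length in this was not tested.

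The peaks at the gene ends were long for their lists, while their scores and folds varied more between mice. By length, the Selenbp1 peaks exceeded 97.4% to 98.3% of the peaks of their own lists and the Selenbp2 end peaks 95.9% to 98.9%, where the median peak of a list had 53 to 88 bases. By score, the Selenbp2 end peaks exceeded 95.1% to 97.7% of peaks in all db/db mice. The Selenbp1 peaks exceeded 97.3%, 93.3% and 86.4% in lean mice 1, 3 and 4, but only 2.38% in lean mouse 2. By fold, the Selenbp2 end peaks exceeded 36.9%, 84.3%, 89.1% and 56.7% of peaks in db/db mice 1 to 4. For Selenbp1 the shares were 37.3%, 4.12%, 28.4% and 7.25% in lean mice 1 to 4, all below the middle of the list. Percentiles within a list do not depend on the depth of another, but they do depend on how many weak peaks the list holds.

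**Figure D2:**
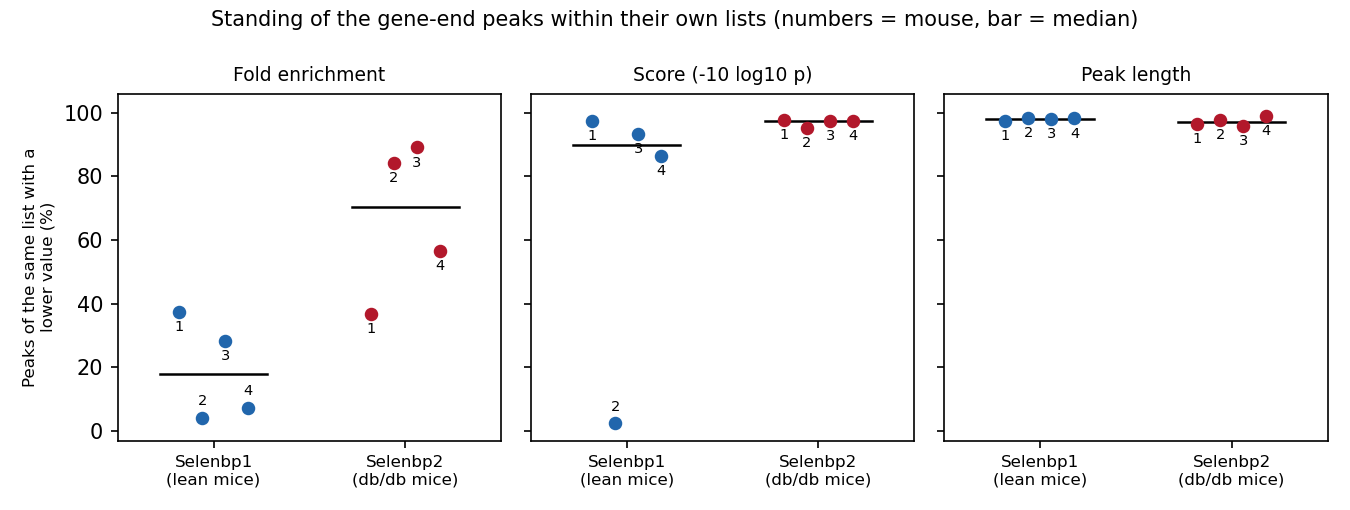
Share of the peaks in the same list with a lower fold (left), score (middle) or length (right), in percent, for the gene-end peaks of Selenbp1 in lean mice and of Selenbp2 in db/db mice. Points are mice, labelled by number, and bars are medians. Lengths run from 95.9% to 98.9%, scores lie above 86.4% except in lean mouse 2 (2.38%), and folds are spread from 4.12% to 89.1%.

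Among peaks lying wholly inside the bounds of their gene, long ones that stopped close to its end were rare outside the pair. Of 20774 peaks inside the bounds of their named gene and with a known strand, 3.48% had at least 300 bases and 1.15% ended within 25 bases of the gene end. In all, 28 peaks in 18 genes met both conditions, and 8 of these peaks were those of Selenbp1 and Selenbp2. No other gene met both in more than 3 mice: Gadd45g, a stress-induced growth arrest gene, had such a peak in 2 db/db mice and 1 lean mouse. Among the 30 regions seen in all mice of a single genotype, the Selenbp1 and Selenbp2 regions were the third and the fourth longest, at 352 and 346 bases. By the mean within-list percentile of the score, the Selenbp2 region ranked second, after that of Cyp4a32, a fatty acid hydroxylase gene, and the Selenbp1 region came at rank 10. By that of the fold the Selenbp1 region was at rank 29 of 30. The limits of 25 and 300 bases, and the genes named here, were chosen after the values were seen. Both limits enclose the values of the pair, so its part of the 28 peaks follows in part from them. Peaks that run past the annotated end of their gene were not counted.

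Genes between the pair had peaks in both genotypes. Of the 3 protein-coding genes there, Cgn, which encodes the tight junction protein cingulin, and Psmb4, which encodes a subunit of the proteasome core, had peaks in all 8 mice, and Pogz, a zinc finger gene, had 1 peak in lean mouse 2. The shared Psmb4 region, at 94886769 to 94886961, had folds of 15.7, 47.9, 47.6 and 46.3 in db/db mice 1 to 4. In lean mice 1 to 4 its folds were 39.8, 63.8, 45.6 and 26.3. The genotypes thus overlapped, with means of 39.4 ± 15.8 and 43.9 ± 15.5 (SD, n = 4 each). The Cgn region found in all mice, at 94764462 to 94764551, had folds of 25.9 to 104 in db/db mice and of 23.5 to 67.7 in lean mice, which overlapped as well. Both genes lie on the minus strand, opposite to the pair.

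**Figure D3:**
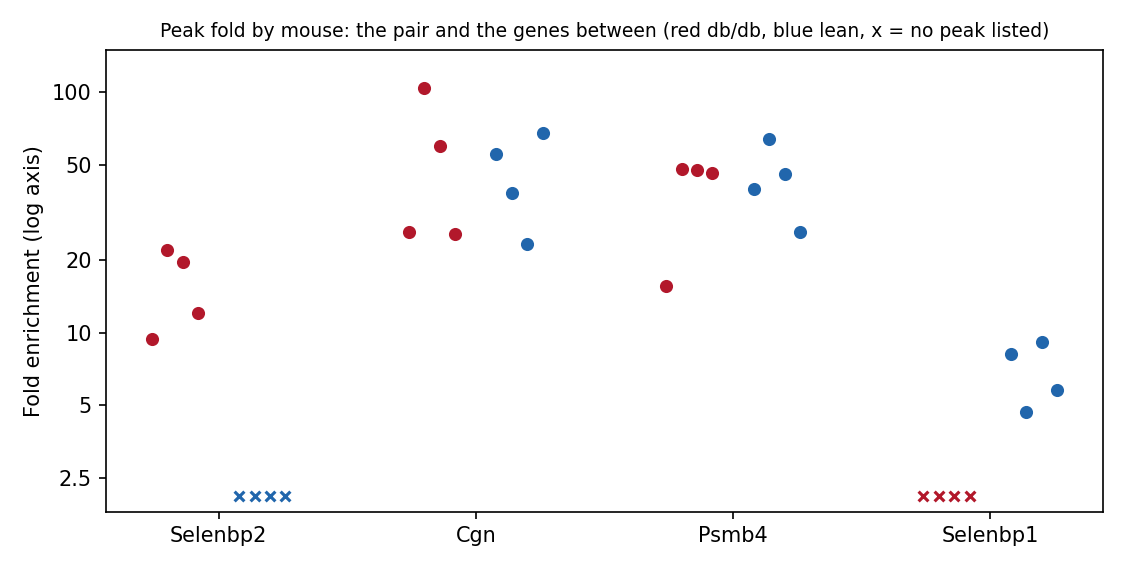
Authors' fold enrichment (log axis) in each mouse for the end regions of Selenbp2 and Selenbp1 and for the regions of Cgn and Psmb4, the genes between them, that had a peak in all 8 mice. Red points are db/db mice, blue points lean mice, and crosses mice with no listed peak: Cgn and Psmb4 have values in both genotypes, Selenbp2 in db/db mice and Selenbp1 in lean mice.

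Within 250 kb of the pair, the annotation held 37 other genes, 20 of them protein-coding, of which 13 had a peak in any mouse and 2, Cgn and Psmb4, in all. None of the 37 was split by genotype as the pair is (0 genes). Of all genes with a peak, 0.205% were listed in every db/db mouse only and 0.133% in every lean mouse only. With shares this small, 0 among the 13 neighbours with a peak does not set the pair apart from them. The other genes with a peak, beyond Cgn and Psmb4, were each listed in at most 5 mice. Pi4kb, a phosphatidylinositol kinase gene, was listed in 2 db/db livers and no lean one. Pip5k1a, a kinase of the same lipid pathway, was listed in 3 db/db and 2 lean livers. Psmd4, a ubiquitin receptor of the proteasome, was listed in lean mouse 1 alone. Tnfaip8l2, an immune regulator, was listed in 2 lean livers and no db/db one. Snx27 and Zfp687 were each listed in 1 db/db and 2 lean livers. Tuft1, Vps72 and Gabpb2 were listed in db/db mouse 4 alone, and Lysmd1 in db/db mouse 2 alone.

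**Figure D4:**
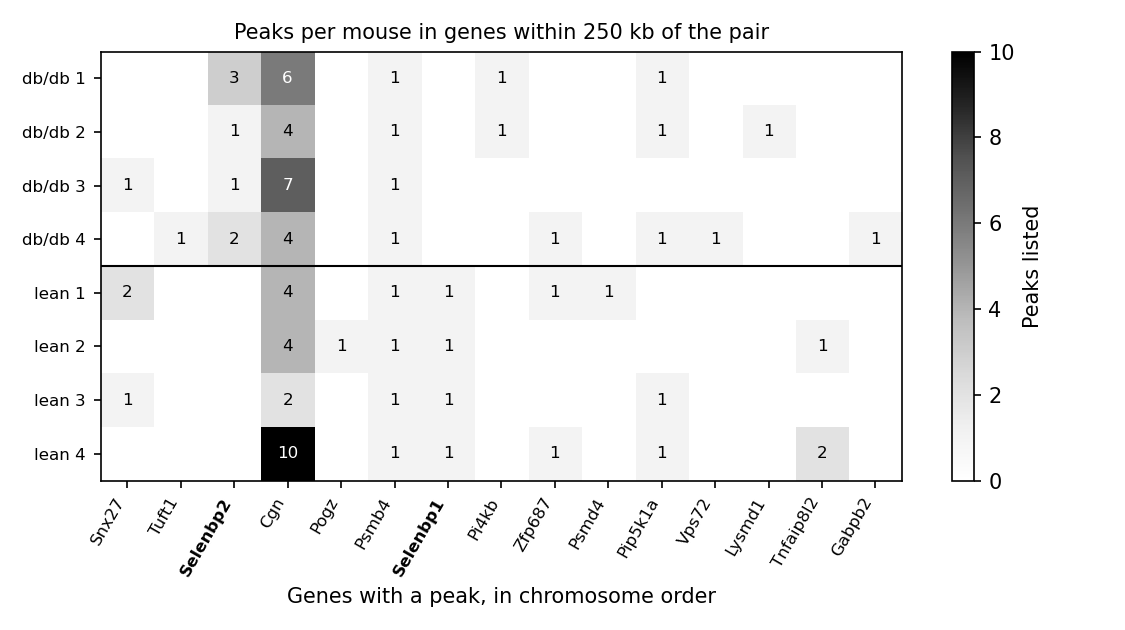
Number of listed peaks per mouse (rows) in each gene with a peak within 250 kb of the pair (columns, in chromosome order, the pair in bold). Selenbp2 has 3, 1, 1 and 2 peaks in db/db mice 1 to 4 and Selenbp1 has 1 in each lean mouse, whereas Cgn and Psmb4 are filled in all 8 rows.

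Genes with the most similar pattern were sought by the mean absolute difference, over the 8 mice, of the percentile of a gene's best fold in each list, with 0 where no peak was listed. For Selenbp2 the nearest genes were Fam83f (8.42 percentage points), Syne3 (8.94), Mphosph8 (9.12), Slc43a3 (9.21) and 2410017I17Rik (10.4). Fam83f and Syne3 were listed in every db/db mouse and the remaining genes in 3, and none of the 5 appeared in a lean list. Each member of the pair stood at 0 in the lists of the other genotype, so the measure itself favours genes with no peak there. The shared genotype is therefore no separate result. Fam83f had folds of 12.3, 16.4, 24.4 and 19.5 in db/db mice 1 to 4. For Selenbp1 they were Arhgef10l (2.30 percentage points), Tspo (2.31), Adamts1 (2.78), Gars (2.87) and Ilvbl (2.90). These were less alike in presence, since Arhgef10l and Gars had a peak in 3 lean mice and Tspo, Adamts1 and Ilvbl in 2, and Adamts1 was also listed in db/db mouse 3, with a fold of 4.76. The Selenbp1 percentiles in lean mice 2 and 4, at 3.56 and 6.25 among the best folds of genes, were so near 0 that the measure hardly tells a weak peak from none. None of these genes is on chromosome 3, but the share of all genes on that chromosome was not counted, so nothing follows from this.

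None of the genes that handle selenium or hydrogen sulfide passed a test between the genotypes. Of 51 genes in 3 lists, 20 had a peak in any mouse, 2, 3, 4 and 7 of them in db/db mice 1 to 4 and 10, 6, 3 and 3 in lean mice 1 to 4. By Fisher's exact test (two-sided, Benjamini-Hochberg adjusted over all genes), 0 of the 20 passed in either direction, nor did any of the 8284 genes (0%), of which 28 had an unadjusted p under 0.05. These 28 include Selenbp1 and Selenbp2, for which the test is no result, since they were chosen on the same peaks. The smallest p the test can give with 4 against 4 mice is 0.0286, so that an adjusted p under 0.05 was out of reach. Of the 20 genes 13 (65%) had a peak in more lean than db/db mice and 7 (35%) the reverse, with a median difference, db/db minus lean, of -1 mouse. Of all genes 32.3% had a peak in more lean and 45.3% in more db/db mice, with a median of 0. Per mouse, the share of the 20 genes with a peak had a mean of 20% ± 10.8 over the 4 db/db livers and of 27.5% ± 16.6 over the 4 lean livers (SD), and the share of all genes 35.3% ± 5.53 and 30.5% ± 7.6. The difference, db/db minus lean, was -7.5 percentage points for the 20 genes and 4.81 for all genes. For the pathway genes it went to 0 when lean mouse 1 was left out, to -11.7 when lean mouse 3 was, to -12.3 when lean mouse 4 was, to -13.9 when db/db mouse 4 was and to -4.63 when db/db mouse 1 was. At a score of at least 100 it was -3.85, at a fold of at least 5 it was -8.75, and with lists of equal length it was -10.7. Each of these values is over the pathway genes that still had a peak.

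Among the factors that take up selenium and build it into selenoproteins, 6 of 13 genes had a peak, 3 in more db/db and 3 in more lean mice. Secisbp2, which binds the selenocysteine insertion element of selenoprotein transcripts, had a peak in lean mice 3 and 4, with folds of 13.2 and 16.1, and in no db/db mouse. Trnau1ap, which binds the selenocysteine transfer RNA, was listed in db/db mice 2 and 4, with folds of 27.4 and 9.53, and in no lean mouse. Neither gene had a region shared by 2 mice, and Fisher's exact p was 0.429 for each (adjusted p = 1). Among the selenoproteins, 7 of 22 genes had a peak, 2 in more db/db and 5 in more lean mice. Txnrd2, the mitochondrial thioredoxin reductase, had peaks in db/db mice 2 and 4, with folds of 5.29 and 10.5. Txnrd3, a thioredoxin glutathione reductase best known from testis, had peaks in lean mice 1 and 2, with folds of 12.6 and 6.51. For both, Fisher's exact p was 0.429 (adjusted p = 1), and no region was shared by 2 mice. With a score of at least 100 the difference of Txnrd2, 50 percentage points in mice with a peak, was 0. Txnrd1, the cytosolic thioredoxin reductase, chosen after its values were seen, had the same region in 3 db/db and 2 lean mice, with folds of 5.5 to 22.2.

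Of the genes of hydrogen sulfide and sulfur amino acid metabolism, 7 of 16 had a peak, 2 in more db/db and 5 in more lean mice, and none differed by 2 mice or more. Ethe1, which oxidises persulfides in mitochondria, and Sqor, which oxidises hydrogen sulfide and is listed under its older name Sqrdl, each had 1 region, listed in 1 db/db and 2 lean livers. Both were chosen after their values were seen. Cell type markers were also looked up. Of 8 hepatocyte genes, 4 had a peak in any mouse, with Alb, Apob, Cps1 and Cyp2e1 in no list. The peaks of a gene do not measure its level, so they do not check the identity of the tissue. All 4 Kupffer cell markers, all 5 of stellate cells, all 4 of sinusoidal endothelium and all 3 of cholangiocytes had a peak in at least 1 mouse, and none of 3 adipocyte markers did. The hepatocyte markers with a peak numbered 0, 3, 2 and 2 in db/db mice 1 to 4 and 1, 1, 0 and 1 in lean mice 1 to 4. Of the 4 hepatocyte markers with a peak, 3 were listed in more db/db and 1 in more lean mice. Serpina1e, a protease inhibitor gene of hepatocytes, was among them in 3 db/db livers and no lean one (Fisher's exact p = 0.143, adjusted p = 1). Ttr went the other way, with peaks in lean mice 1 and 4 (folds of 7.45 and 6.18) and in no db/db mouse. For Kupffer cells the numbers were 1, 1, 0 and 2 in db/db and 2, 0, 2 and 3 in lean mice. For stellate cells they were 2, 2, 1 and 3 in db/db and 3, 1, 1 and 1 in lean mice. Sinusoidal endothelium had 1, 1, 1 and 1 in db/db and 1, 1, 2 and 0 in lean mice, and cholangiocytes had 1, 1, 1 and 1 in db/db and 1, 1, 1 and 2 in lean mice. The ranges of the genotypes overlapped for each cell type with a peak, and the part of these markers in the pattern of the pair was not tested. The markers named were chosen after their values were seen.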

How the data were processed

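MeRIP-seq peak lists of 8 mouse livers were used, 1 per mouse, matched to the precipitated libraries through the mouse name in sheet and title. Per the submitters' processing notes, the tools were HISAT2 2.0.4 and cutadapt 1.9.3, with mm10 as the build. The peak identifiers carry the name MACS in the deposited lists; the caller's version, settings and use of the input are not given in the sources used here. Fold enrichment is used as deposited, and with the use of the input not given, its background is not known here. The deposited score is the log10 p-value multiplied by -10, at least 50, a p of 1e-05. A deposited column repeating the score in each list, 8 in all, was not used.

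Starts were converted to count from 1. Peaks of a gene sharing at least 1 base over the lists were merged into regions. Gene bounds, strands and upstream sequence came from RefSeq for GRCm38.p6. Sequences were aligned with Biopython 1.88 (match 2, mismatch -3, gap opening -5, gap extension -1, free end gaps). Fisher's exact test (SciPy 1.17.1) was run on all genes, the pair included, with Benjamini-Hochberg adjustment over them, and is read for genes outside the pair only, and the functions were tested on simulated data. The labels number the mice of a genotype as separate samples. With no read counts, depth and its precision were unknown. The members and lists were chosen with earlier results of these data known. The genes named are the pair, members of the pathway lists differing by at least 2 mice, the 5 genes most like each member and neighbours with a peak within 250 kb, and any other gene is marked in the text as picked later. Alternatives were a fold of at least 5, a score of at least 100, lists cut to 2475 peaks of highest fold, other ways of merging and assigning peaks, leaving out each mouse, and a replicate block.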

Additional observations from a re-analysis of the deposited data

Results flagged for a closer look

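In 3 of 17 groups of 4 mice examined, 1 mouse lay far from the rest. The rule would flag about 1 in 20 independent groups by chance. Several groups hold the same peaks as values and again as percentiles, so 3 of 17 cannot be set against that rate. The Selenbp1 peak of lean mouse 2 exceeded 2.38% of the peaks of its list by score, while the remaining lean mice were at 86.4% or above. The Selenbp2 end peak of db/db mouse 2 exceeded 95.1%, against 97.3% to 97.7% in the other db/db mice, a small distance that stood out because the remaining values were close together. The Psmb4 peak of db/db mouse 1 had a fold of 15.7, against 46.3 to 47.9 in the other db/db mice.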

How the results depend on the processing

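Differences are in mice with a peak, db/db minus lean, in percentage points, and were -100 for Selenbp1, 100 for Selenbp2, the same for their end regions, and 25 and 50 for the first and second internal regions of Selenbp2. With a fold of at least 5 they were -75 for Selenbp1 and its end region and 0 for both internal regions. With a score of at least 100 they were -75 for Selenbp1 and its end region, 0 for the first and 25 for the second internal region. With lists of equal length, which keep the peaks of highest fold, they were -25 for Selenbp1 and its end region, 75 for Selenbp2 and its end region, and 0 for both internal regions, since the peak of db/db mouse 1 and those of lean mice 1, 2 and 4 lay below the fold at which their lists were cut. The cut-offs and leaving out a mouse only take away peaks or mice, and no list of the other genotype holds a peak of either gene. These alternatives could not reverse a difference of the pair, so that none did is no support for it. Leaving out each mouse gave -100 for Selenbp1 and 100 for Selenbp2 throughout, as the choice of the pair had already fixed. For the internal regions of Selenbp2 it gave 0 to 33.3 for the first (0 without db/db mouse 1) and 33.3 to 66.7 for the second.

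Regions seen in all mice of a single genotype only numbered 13 (db/db) and 17 (lean), and 5 and 7 with a score of at least 100. The genes numbered 17 and 11, then 3 and 7 with a score of at least 100 and 11 and 19 with lists of equal length. Leaving out a mouse, which eases the condition, gave 14 to 33 and 23 to 38 regions and 27 to 60 and 14 to 31 genes. Merging by 50% overlap or over gaps of 100 bases, and assigning peaks by gene bounds, left every value for the pair unchanged. The mouse numbers did not pair the mice, as the correlations of same-numbered mice lay between -0.028 and 0.0088. With the number as a replicate block 0 genes passed an adjusted p of 0.05, as without it, and a sign test over 4 pairs could not reach it. Depth, being unknown, limits what a missing peak shows.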
